A study of Homo sapiens with 6 samples.

Results

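A set of 10 genes induced by the transcription factor NF-kB was followed in AGS, an established cell line from a human gastric adenocarcinoma, after transfection of an inhibitor of the microRNA miR-25-3p. They are the chemokine genes CXCL1, CXCL2, CXCL3, CXCL8 and CCL20, the feedback genes NFKBIA, TNFAIP3 and BIRC3, the adhesion gene ICAM1 and the cytokine gene LIF. Members were taken by name: a probe set counted when the array annotation gave it exactly 1 of these symbols, with the older name IL8 accepted for CXCL8. This found all 10 genes on 69 probe sets, of 18656 genes and 224320 such probe sets on the array. No further probe set named a member together with another gene.

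The inhibitor group (3 arrays) received the anti-miR against miR-25-3p, and the control group (3 arrays) a non-targeting control RNA. Both were delivered with a lipid reagent, again 24 h later, and cells were harvested at 48 h, so the controls share the transfection itself. No cytokine, bacterium or other NF-kB stimulus is named for either group. The labels call the arrays biological replicates without naming separate cultures or days, so the tests measure the spread between these arrays, which may be partly technical. All values are the deposited log2 expression values, and a gene value is the mean over the probe sets of that gene, array by array. A difference is inhibitor minus control, so 1 on this scale is a 2-fold change.

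NF-kB dimers are held in the cytoplasm by inhibitor proteins of the IkB family. Signals such as tumour necrosis factor, interleukin-1 or, in the stomach, Helicobacter pylori activate a kinase complex that destroys IkB, and the freed dimers enter the nucleus and switch on chemokines, adhesion molecules and survival genes. Among the genes they switch on are their own inhibitors, so NFKBIA and TNFAIP3 form negative feedback loops. Messages of these genes turn over fast and are used as readouts of NF-kB activity in epithelial cells.

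The inhibitor was directed at the first sequence below, shown because its seed (bases 2 to 8, in capitals) is what a microRNA mainly pairs with. The RefSeq table of build GRCh38.p14 gives this seed to 6 mature human microRNAs, miR-25-3p included, of which miR-92a-3p is shown for comparison. The mature microRNA was not measured on these arrays.
hsa-miR-25-3p (chr7:100093571-100093592, minus strand): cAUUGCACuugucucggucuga
hsa-miR-92a-3p (chr13:91351361-91351382, plus strand): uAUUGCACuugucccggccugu

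The members were chosen by name as genes induced by NF-kB, and their promoters, where held, were searched for NF-kB-like sites. Finding such sites is therefore not independent of the choice. RefSeq promoters of 300 bases (250 before to 50 after the start, GRCh38.p14) were held for 9 of the 10 members. The letters GGAATTTCC, picked after reading these sequences and searched on both strands, lay in 6 of those 9 and in 0.461% of all 35116 promoters. Since the letters were picked there, these shares are not compared as a test. The 6 include CXCL1, CXCL2 and CXCL3, whose promoters are alike. The related letters GGGATTTCC lay in the promoters of TNFAIP3 and BIRC3 and in 0.393% of all promoters. Sites matching the general kappa-B consensus, which overlap these letters in every member that has both, were found in 7 of the 9 members and in 11.3% of all promoters. A match is a description of the letters and not of binding. The windows below run 5′ to 3′ along each gene with the matched letters in capitals, and for NFKBIA and TNFAIP3 the match reads on the opposite strand.
CXCL1 (chr4:73869295-73869343, plus strand): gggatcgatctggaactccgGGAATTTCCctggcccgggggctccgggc
CXCL2 (chr4:74099244-74099292, minus strand): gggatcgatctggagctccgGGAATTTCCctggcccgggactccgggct
CXCL3 (chr4:74038739-74038787, minus strand): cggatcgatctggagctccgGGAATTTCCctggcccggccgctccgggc
CXCL8 (chr4:73740458-73740506, plus strand): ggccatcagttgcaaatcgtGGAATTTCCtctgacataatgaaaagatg
NFKBIA (chr14:35404802-35404850, minus strand): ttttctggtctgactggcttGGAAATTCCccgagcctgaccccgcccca
TNFAIP3 (chr6:137867184-137867232, plus strand): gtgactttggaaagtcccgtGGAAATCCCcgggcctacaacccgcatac

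The CXCL1, CXCL2 and CXCL3 promoters were also alike outside the site, with 82.5% identity between CXCL1 and CXCL3, 73.7% between CXCL2 and CXCL3 and 69.8% between CXCL1 and CXCL2 in global alignments. The other 33 pairs of member promoters had 38.8% to 52.4%. These 3 genes are recent duplicates on chromosome 4, so their probe sets may read each other's transcripts and their values are uncertain as single genes.

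None of the 10 genes passed the test for a difference between inhibitor and control. limma called 0 members at an adjusted p under 0.05, against 0% of all 18656 genes, and 0 members at an unadjusted p under 0.05, against 6.12% of all genes. For no member did the 3 inhibitor arrays lie wholly above or wholly below the 3 control arrays, against 12.9% of all genes. Differences ran from -0.21 for LIF to 0.21 for CCL20, with 4 positive, 6 negative and a median of -0.099 (median of all genes 0.0021). A difference at least as large as that of CCL20, in either direction, was found in 12.6% of all genes. The median size of a member's difference was 0.15, against 0.092 over all genes. The members had 4 to 10 probe sets each, against a median of 10 per gene. A mean over fewer probe sets varies more, so nothing is read from this gap. Each of the 10 intervals of 95% held 0 and none reached a 2-fold change, the widest bounds being -0.62 (CXCL3) and 0.49 (CCL20). These intervals are for the mean over probe sets and are not given for other settings. CXCL3 had -0.47 (SE 0.34) with the median of probe sets, and CXCL8 0.49 (SE 0.29) with the brightest. A 2-fold change is therefore not excluded for these genes.

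**Figure D1:**
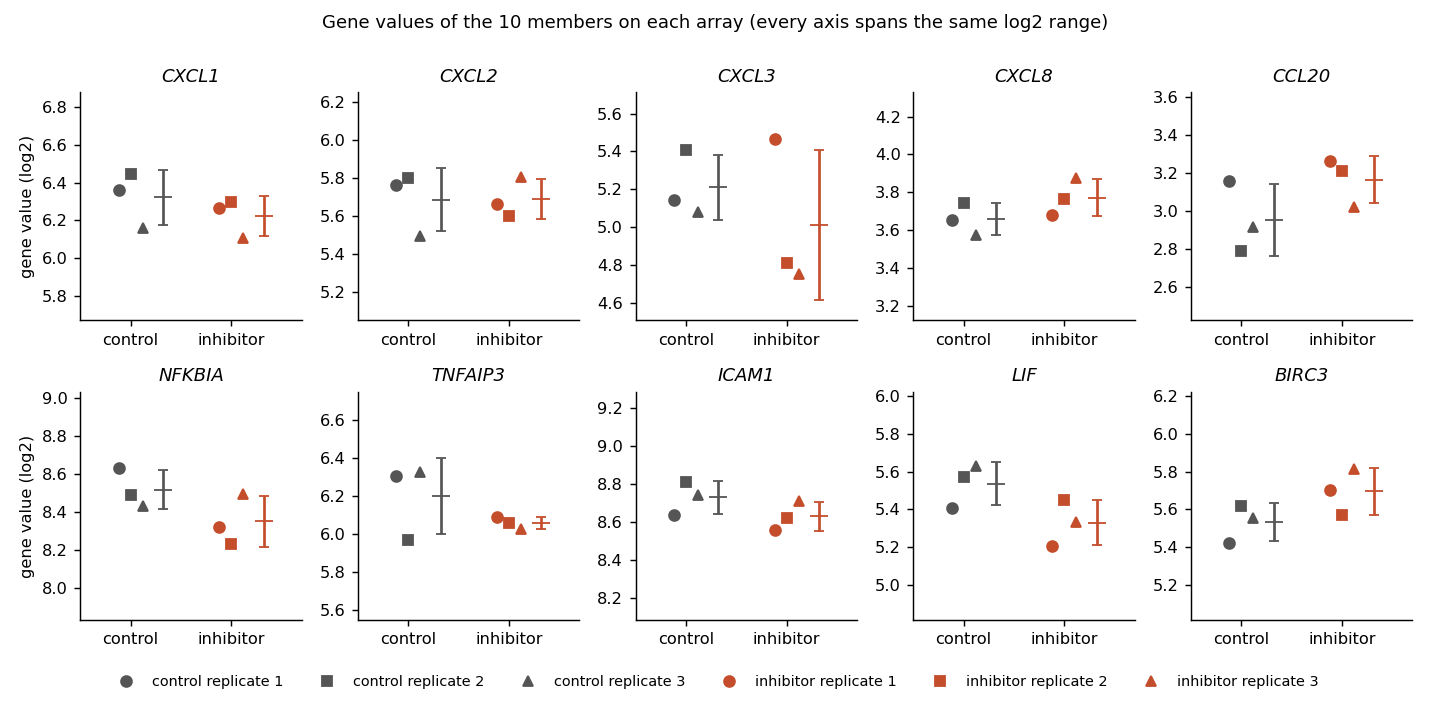
Gene value (log2) of each of the 10 members on every array, with the mean ± SD of each group of 3 arrays beside the points; every axis spans the same log2 range. Control and inhibitor arrays overlap for all 10 genes, and inhibitor replicate 1 of CXCL3 stands apart from the other inhibitor arrays (5.47 against 4.81 and 4.76).

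CXCL1, CXCL2 and CXCL3 encode the GRO chemokines, which draw neutrophils through the receptor CXCR2. CXCL1 read 6.36, 6.45 and 6.16 in control replicates 1 to 3 and 6.27, 6.30 and 6.11 in inhibitor replicates 1 to 3. The lowest array was an inhibitor array, but control replicate 3 lay below the other inhibitor arrays, and the difference was -0.098 (SE 0.11, adjusted p 0.88 in limma). CXCL2 read 5.76, 5.80 and 5.50 in control and 5.66, 5.60 and 5.81 in inhibitor arrays. The group means were nearly equal, 5.69 ± 0.17 and 5.69 ± 0.11 (SD, n = 3 each), with a difference of 0.004 (SE 0.11). CXCL3 read 5.15, 5.41 and 5.08 in control arrays and 5.47, 4.81 and 4.76 in inhibitor arrays. Its inhibitor arrays held both the highest and the lowest value of all 6, and the difference of -0.20 (SE 0.19, limma adjusted p 0.85) became -0.43 (SE 0.13, limma adjusted p 0.91) without inhibitor replicate 1. It was nearer 0 without control replicate 2 (-0.10), inhibitor replicate 2 (-0.10) or inhibitor replicate 3 (-0.071).

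CXCL8, interleukin-8, is the neutrophil chemokine most often measured as an NF-kB readout in gastric epithelium, and CCL20 draws CCR6-bearing lymphocytes and dendritic cells. Both were dim here. CXCL8 read 3.65, 3.74 and 3.58 in control and 3.68, 3.76 and 3.88 in inhibitor arrays, a difference of 0.11 (SE 0.095, limma adjusted p 0.84). CCL20 read 3.16, 2.79 and 2.91 in control and 3.26, 3.21 and 3.02 in inhibitor arrays, a difference of 0.21 (SE 0.12, limma adjusted p 0.79). The inhibitor arrays of CCL20 lay above 2 of the 3 control arrays, and control replicate 1 fell among them. Without that array the difference was 0.32 (SE 0.11, limma adjusted p 0.74), and without control replicate 2 it was 0.13. As a rough guide to silence, 95% of 348 olfactory receptor genes, which gastric cells are not known to use, had a mean of at most 4.29 over the 6 arrays. CXCL8 (3.72) and CCL20 (3.06) lay under that level and the other 8 members above it, although probe sets differ in brightness for reasons other than expression. A change in a message at this level may not be measurable.

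NFKBIA encodes IkB-alpha, the inhibitor that re-captures NF-kB. It read 8.63, 8.49 and 8.43 in control and 8.32, 8.23 and 8.49 in inhibitor arrays. Inhibitor replicates 1 and 2 lay below every control array and inhibitor replicate 3 among them, with a difference of -0.17 (SE 0.10, limma adjusted p 0.79) that was -0.11 without inhibitor replicate 2 and -0.11 without control replicate 1. TNFAIP3 encodes A20, a ubiquitin-editing enzyme that shuts off signalling upstream of the kinase. It read 6.30, 5.97 and 6.33 in control and 6.09, 6.06 and 6.03 in inhibitor arrays. The inhibitor arrays lay within 0.06 of each other, between control replicate 2 and the other controls, and the difference was -0.14 (SE 0.11, limma adjusted p 0.83). Without control replicate 2 it was -0.26 (SE 0.10, limma adjusted p 0.88), without control replicate 1 -0.089 and without control replicate 3 -0.077. BIRC3 encodes cIAP2, a ubiquitin ligase of the tumour necrosis factor receptor complex that also protects from cell death. It read 5.42, 5.62 and 5.56 in control and 5.70, 5.57 and 5.81 in inhibitor arrays, a difference of 0.16 (SE 0.10, limma adjusted p 0.80) with inhibitor replicate 2 among the controls. The estimates of NFKBIA and TNFAIP3 were thus negative and that of BIRC3 positive.

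ICAM1 is the ligand of leukocyte integrins on epithelium and endothelium. It read 8.64, 8.81 and 8.74 in control and 8.56, 8.62 and 8.71 in inhibitor arrays. The groups overlapped through control replicate 1, and the difference was -0.10 (SE 0.092, limma adjusted p 0.85). LIF, a cytokine of the interleukin-6 family, acts through LIFR and gp130. It read 5.41, 5.57 and 5.63 in control and 5.21, 5.45 and 5.34 in inhibitor arrays. LIF had the smallest unadjusted p of the members, 0.080, and its difference was -0.21 (SE 0.10, limma adjusted p 0.79). Control replicate 1 lay between inhibitor replicates 2 and 3, and without it the difference was -0.27 (SE 0.10, limma adjusted p 0.74), while without inhibitor replicate 1 it was -0.14.

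**Figure D2:**
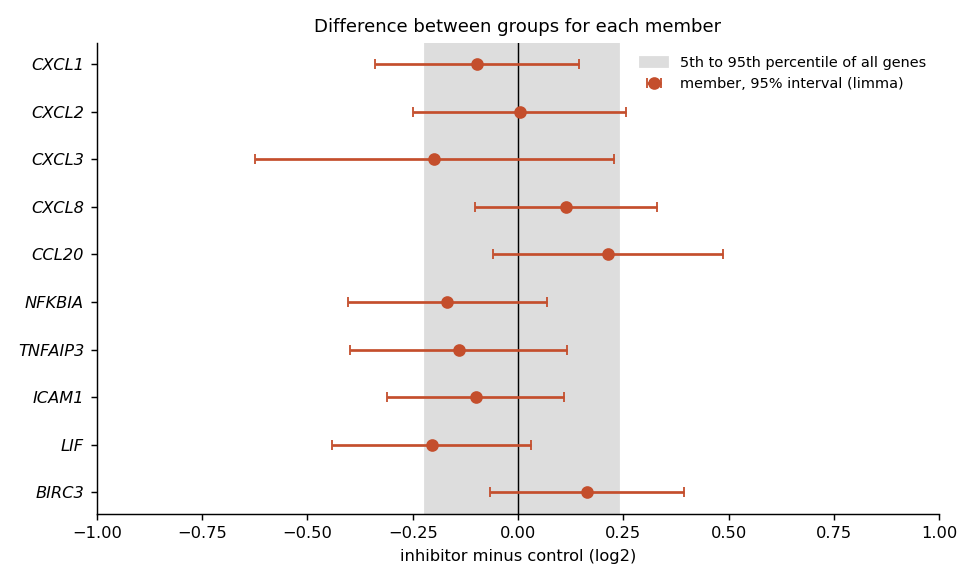
Difference between the groups (inhibitor minus control, log2) for each member as a point with its 95% interval from limma; the grey band runs from the 5th to the 95th percentile of all 18656 genes, -0.22 to 0.24. All 10 points lie inside the band and every interval crosses 0.

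The members did not move together from array to array. Averaged over the 10 genes, each centred on its own mean, control replicates 1 to 3 stood at 0.034, 0.051 and -0.023 and inhibitor replicates 1 to 3 at 0.008, -0.051 and -0.019. The groups overlapped in this mean, since inhibitor replicate 1 lay above control replicate 3. Over the 45 pairs of members, Pearson correlations across the 6 arrays, given as a description, ran from -0.986 to 0.777 with a median of -0.026. By the rule used for likeness, the non-member genes whose values followed this mean most closely, among 9324 brighter than the median gene, were FIBP (r = 0.996), EARS2 (0.988), NIN (0.980), IGSF9B (0.965) and STARD3 (0.963), each over 6 arrays. Their own differences ran from -0.15 for FIBP, an intracellular binding protein of a fibroblast growth factor, to -0.055 for EARS2, a mitochondrial tRNA synthetase. None of those differences passed the threshold in limma, with adjusted p from 0.81 to 0.91. These genes are the highest of 9324 candidates over 6 arrays, so correlations this high can come from selection alone.

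Single probe sets show how far the gene values rest on agreement within a gene. limma called 0 of the 69 member probe sets, and 3 of 69 had an unadjusted p under 0.05, against 6.21% of all 224320 probe sets. Groups did not overlap on 11 of the 69 (15.9%), against 12.2% of all probe sets. The probe sets of LIF were all 6 negative, from -0.63 to -0.027, those of NFKBIA 7 of 8 negative and those of BIRC3 9 of 10 positive. Probe sets of a gene read the same 6 arrays, so a shared sign is not repeated evidence. How often other genes share a sign in this way was not counted. For ICAM1, 7 of 10 were negative, and 4 had all inhibitor arrays below all control arrays. On the brightest of these, ICAM1 read 10.75, 10.65 and 10.68 in control and 10.42, 10.57 and 10.50 in inhibitor arrays. The groups stood apart there by 0.08, and the difference was -0.20 (SE 0.13, limma adjusted p 0.84). The exception in BIRC3 was its brightest probe set, at -0.087 (SE 0.14), and 3 of its 10 averaged under the olfactory receptor level. That level was set on gene means, which vary less than single probe sets. For single probe sets, here and below, it is a still rougher guide. 1 of the LIF probe sets has an identifier far from the others, and without it the LIF difference was -0.24 (SE 0.12, limma adjusted p 0.79).

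CXCL8 was the member whose probe sets spanned the widest range of differences, and 3 of its 7 probe sets averaged under the olfactory receptor level. The probe set with the lowest identifier read 2.64, 2.13 and 2.13 in control and 3.73, 4.34 and 3.75 in inhibitor arrays, a difference of 1.64 (SE 0.25, unadjusted p 0.00056, limma adjusted p 0.76). The next read 4.79, 4.91 and 4.44 in control and 3.80, 4.01 and 3.96 in inhibitor arrays, a difference of -0.79 (SE 0.18, unadjusted p 0.0042, limma adjusted p 0.76). Groups did not overlap on either, and the directions were opposite. The first had a mean of 3.12 over the 6 arrays, under the olfactory receptor level of 4.29, and the second 4.32, close to it. Whether either reads CXCL8 or another transcript was not tested, so neither is taken as a change in CXCL8. Across the 7 probe sets the differences ran from -0.95 to 1.64, 4 positive and 3 negative, and the brightest had 0.49 (SE 0.32). The lowest, -0.95, came from a probe set with a mean of 1.73. Taking the median probe set as the gene value, CXCL8 turned to -0.33 (SE 0.12, limma adjusted p 0.83).

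**Figure D3:**
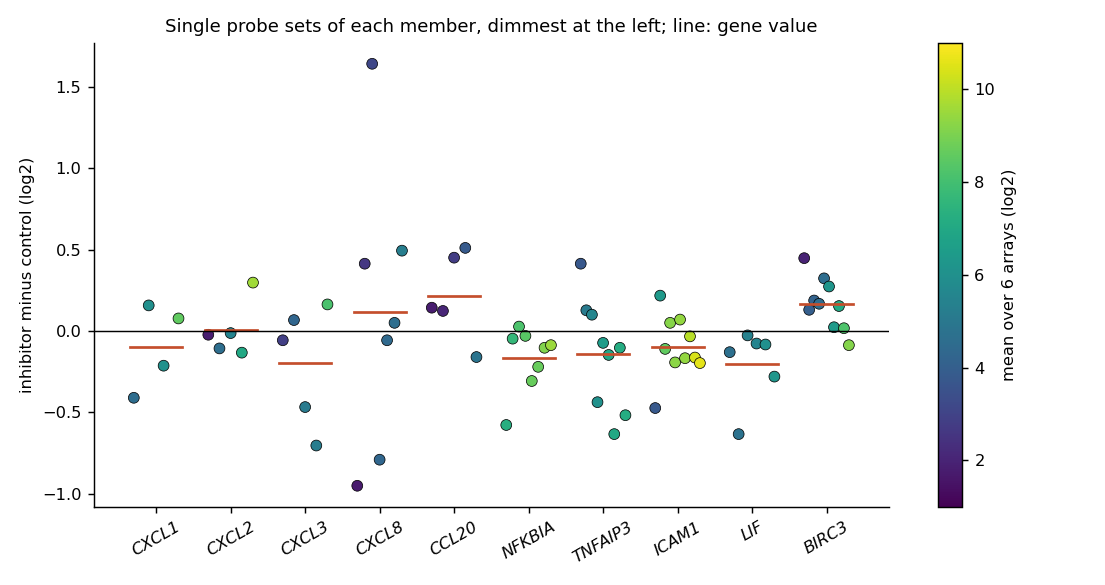
Each point is 1 of the 69 member probe sets, with its difference (inhibitor minus control, log2) on the vertical axis and its mean over 6 arrays as colour, dimmest at the left within a gene; the line is the gene value. CXCL8 spans -0.95 to 1.64, while all 6 points of LIF lie below 0 and 9 of 10 of BIRC3 above it.

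TNFAIP3 had its most negative probe sets next to each other, at the 2 lowest identifiers. The first read 7.47, 7.01 and 7.46 in control and 6.91, 6.60 and 6.53 in inhibitor arrays, with no overlap and a difference of -0.63 (SE 0.20, unadjusted p 0.019, limma adjusted p 0.79). The second, which is the brightest of the gene, had -0.52 (SE 0.23, limma adjusted p 0.81). The other 7 ran from -0.44 to 0.41, with 4 negative and 3 positive, so the estimates of these 2 were not shared by the whole gene. For CCL20, 4 of 5 probe sets were positive, and the exception was again the brightest, at -0.16 (SE 0.35). All 4 positive ones averaged under the olfactory receptor level of 4.29, while the brightest averaged 4.85.

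The brightest probe sets of CXCL2 and CXCL3 followed the same order of arrays, and that of CXCL1 shared their highest array. For CXCL2 this probe set read 9.53, 9.46 and 9.34 in control and 9.87, 10.13 and 9.22 in inhibitor arrays. For CXCL3 it read 8.18, 8.13 and 7.81 in control and 8.26, 8.55 and 7.80 in inhibitor arrays. CXCL2 and CXCL3 ranked the 6 arrays identically, with inhibitor replicate 2 highest and inhibitor replicate 3 lowest. For CXCL1 it read 8.65, 8.56 and 8.28 in control and 8.58, 8.78 and 8.36 in inhibitor arrays, with inhibitor replicate 2 again highest but control replicate 3 lowest. On CXCL2 the inhibitor arrays spanned 0.91 and the control arrays 0.19, and the difference was 0.30 (SE 0.26, limma adjusted p 0.87). The brightest probe set of NFKBIA was at its lowest on inhibitor replicate 2 (9.34) and that of ICAM1 was at 10.57 there, so the order was not common to the members. This pattern was chosen after the values were seen.

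**Figure D4:**
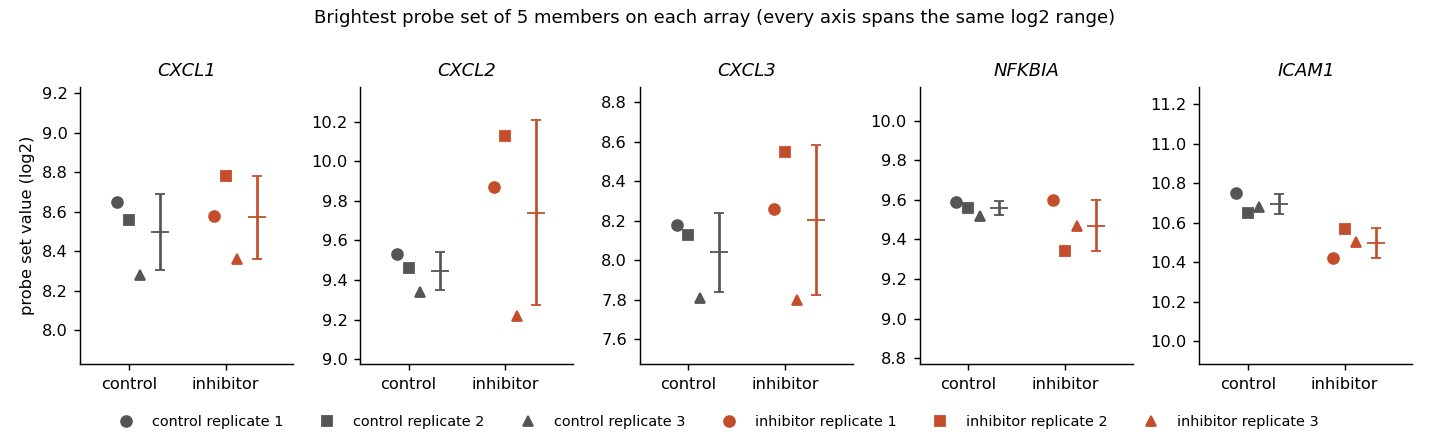
Brightest probe set (log2) of CXCL1, CXCL2, CXCL3, NFKBIA and ICAM1 on each array with the mean ± SD of 3 arrays per group; every axis spans the same log2 range. Inhibitor replicate 2 is highest for the GRO genes, at 8.78, 10.13 and 8.55, and the inhibitor arrays of ICAM1 (10.42 to 10.57) lie below its control arrays.

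Other genes of the pathway were examined in 6 lists, and limma called 0 genes of any list. The shares without overlap given for each list stand against 12.9% of all genes, and with lists this small nothing is read from their distance to it. The 16 other feedback inhibitors had 5 positive and 11 negative differences, a median of -0.051 and 2 genes (12.5%) without overlap. TNIP1, a partner of A20, read 7.92, 7.76 and 7.80 in control and 7.59, 7.64 and 7.48 in inhibitor arrays. All inhibitor arrays were lower, with a difference of -0.25 (SE 0.092, limma adjusted p 0.79). BCL3, a nuclear IkB protein, had -0.12 (SE 0.11), and TAX1BP1, an adaptor for A20, had 0.14 (SE 0.093). TNIP3, a relative of TNIP1, had 0.45 (SE 0.11, limma adjusted p 0.79, no overlap) at a mean of 3.08, which is under the level of the olfactory receptors.

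Subunits of NF-kB and its kinase pathway numbered 30 measured genes, with 11 positive, 19 negative, a median of -0.017 and 4 (13.3%) without overlap. RELB, a subunit of the alternative pathway, had 0.18 (SE 0.094) and the kinase TBK1 0.17 (SE 0.11). TRADD, the adaptor of the tumour necrosis factor receptor, had -0.18 (SE 0.11) and SHARPIN, of the linear ubiquitin ligase, -0.18 (SE 0.089). All inhibitor arrays lay above all controls for RELB and below them for SHARPIN. All but 1 gene of this list were brighter than the olfactory receptor level.

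Inducing ligands and their receptors, 27 genes, had 14 positive and 13 negative differences, a median of 0.0057 and 5 (18.5%, against 12.9% of all genes) without overlap. Of the list, 18 of 27 genes were above the olfactory receptor level. The main inducers TNF (3.53), IL1A (2.35) and IL1B (3.22) were dim, all under it. Among the other ligands, LTA (4.17) and IL36G (3.75) were also under it. IL18 (9.7), LTB (6.85), TNFSF14 (5.37) and IL17C (5.06) were above it. The receptor genes TNFRSF1A (8.69), IL1R1 (4.5) and its accessory chain IL1RAP (6.10) were above it, IL1R1 only slightly. These are means over the 6 arrays, and levels of different probe sets are not compared further. TNFRSF1A had -0.17 (SE 0.093) and IL17RA, a subunit of the interleukin-17 receptor, -0.17 (SE 0.088), both with all inhibitor arrays below all controls. IL17A had 0.59 (SE 0.12, limma adjusted p 0.79) at a mean of 4.39, near the olfactory receptor level, and TLR6, a bacterial lipopeptide receptor, 0.36 (SE 0.12, limma adjusted p 0.79) at 3.46. For IL17A and TLR6 all inhibitor arrays lay above all controls.

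Of 20 other NF-kB-induced cytokines and chemokines, 10 were positive and 10 negative, with a median of 0.013 and 2 (10%) without overlap; 11 were brighter than the olfactory receptor level. CXCL11, an interferon-induced chemokine, had 0.28 (SE 0.13) and IL6 0.26 (SE 0.12) at a mean of 3.12. CSF1, the macrophage growth factor, had -0.19 (SE 0.086) and CCL28, a mucosal chemokine, -0.16 (SE 0.11) at a mean of 3.46. All inhibitor arrays lay above all controls for IL6 and below them for CSF1.

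The 24 other NF-kB-induced adhesion, survival and enzyme genes had 8 positive and 16 negative differences, a median of -0.070 and 6 (25%, against 12.9% of all genes) without overlap. IRF1, an interferon-response transcription factor that NF-kB also induces, read 7.21, 7.23 and 7.28 in control and 6.98, 6.73 and 7.02 in inhibitor arrays. All inhibitor arrays were lower, with a difference of -0.33 (SE 0.10, unadjusted p 0.010, limma adjusted p 0.79). The acute-phase gene SAA2 had -0.35 (SE 0.10) at a mean of 3.23, with all inhibitor arrays below all controls. SERPINB2, a protease inhibitor, had 0.35 (SE 0.11) and XIAP, a caspase inhibitor, 0.17 (SE 0.089), both with all inhibitor arrays above all controls. Receptors of the members and LIF signalling, 15 measured genes, had 8 positive and 7 negative differences, a median of 0.0056 and 2 (13.3%) without overlap. LIFR had 0.20 (SE 0.11) and the kinases PIM1 and TYK2 -0.12 (SE 0.082) and -0.16 (SE 0.092). For PIM1 and TYK2 all inhibitor arrays lay below all controls. CXCR2, the receptor of the GRO chemokines, was at 2.59 with 0.054 (SE 0.11), and CCR6 at 3.93.

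**Figure D5:**
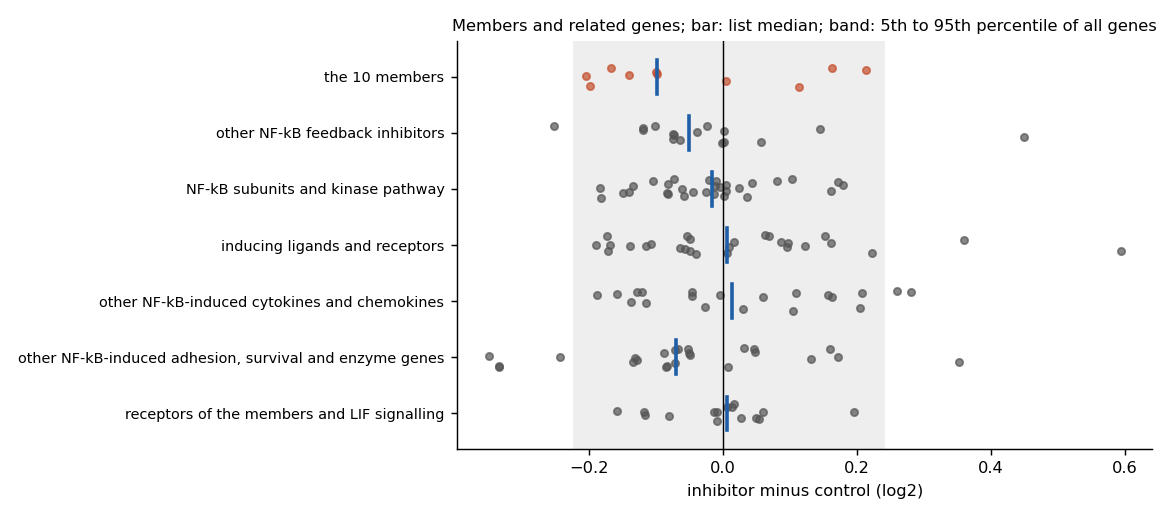
Difference (inhibitor minus control, log2) of the 10 members and of the genes of 6 related lists, 1 point per gene, with a bar at each list's median and a band from the 5th to the 95th percentile of all genes. List medians lie between -0.099 (the members) and 0.013.

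Column medians of the deposited table lay between 6.02 and 6.07. Control replicate 1 was the least like its fellows: its gene values correlated at 0.9915 on average with those of the other arrays, and the remaining arrays at 0.9933 to 0.9938. All 9 epithelial markers, among them EPCAM, KRT8 and KRT18, were above the olfactory receptor level, with list means of 9.05 to 9.07 in control and 8.99 to 9.11 in inhibitor arrays. Leukocyte markers were above it for 4 of 10, at list means of 4.04 to 4.11 and 4.08 to 4.20, with LYZ at 8.82, CSF1R at 5.04, S100A9 at 4.74 and CD14 at 4.48, and PTPRC, common to leukocytes, at 2.58. Fibroblast markers were above it for 4 of 7, at 4.47 to 4.63 and 4.56 to 4.60, with PDGFRA at 6.41, COL1A1 at 6.38, COL3A1 at 5.02 and COL1A2 at 4.85, and DCN at 2.64. Endothelial markers were above it for 0 of 6, at 3.57 to 3.73 and 3.49 to 3.51.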

How the data were processed

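The authors deposited log2 values of 257430 probe sets on 6 arrays (Human Gene 1.0 ST). Per the submitters' processing notes, RMA was used together with the Affymetrix Expression Console and the Transcriptome Analysis Console, versions not given. RMA makes the distributions of arrays alike, so a change common to most genes would not show. Precision is limited by the small number of arrays.

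Gene names came from the annotation of the array, symbols were updated through RefSeq (GRCh38.p14), and probe sets naming 1 gene were averaged into 18656 gene values. Groups were compared by limma (version 3.58.1, under R 4.3.3), using lmFit then eBayes across all genes, without a block, with Benjamini-Hochberg adjustment over all genes and a threshold of 0.05. The fit was tested on simulated arrays. With 3 against 3 arrays an exact permutation test cannot go below p = 0.1, so none is given.

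The members and lists were chosen with earlier results of these data known. All members were named, and in each related list the 2 genes with the largest positive and the 2 with the largest negative moderated t. Some further ligands and receptors, such as TNF, IL1B, IL18, IL1R1 and CCR6, were named outside this rule. Only their levels are given. Genes with the profile most like the members' mean were chosen by Pearson correlation over the arrays. Protein sequences were not used here. The replicate numbers are not said to mark a shared batch, so they were not taken as pairs. Arrays of the same number, each taken relative to its group mean, correlated across genes at -0.032, -0.040 and 0.17. Those of different numbers correlated at -0.206 to 0.208. Deviations within a group cancel out, which ties these correlations to each other, so they cannot settle pairing.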

Additional observations from a re-analysis of the deposited data

How the results depend on the processing

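limma called 0 members under each setting run, with adjusted p from 0.533 to 0.998 over all settings. With the replicate block it called 0 members and 0 genes, so the block changed no call. Over all genes the count was 0 under each other setting, and 0 to 1 when 1 array was left out. Members without overlap, 0 in the report, numbered 1 with the median of probe sets (CXCL8; 11.9% of all genes), 2 with the brightest probe set (ICAM1, LIF; 12.2%), 1 without the dimmest 30% of probe sets (CXCL8; 13.7%) and 1 to 3 when 1 array was left out (21.2% to 25%). Those with an unadjusted p under 0.05, also 0, numbered 1 with the median of probe sets (CXCL8; 5.88% of all genes), 1 with the brightest (TNFAIP3; 6.23%), 1 without the dimmest 30% of probe sets (CXCL8; 6.53%), 2 with array weights (CCL20, LIF; 9.05%) and 0 to 2 leaving out 1 array (4.59% to 6.81%). Leaving out an array makes overlap rarer by construction. limma draws part of its estimate of spread from all rows of a fit, so the same probe set can have different SEs and p-values. The brightest TNFAIP3 probe set had an unadjusted limma p of 0.0407 in that setting and 0.0635 in the fit over all probe sets.

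Of 153 member values under the alternatives, 143 kept their sign. With the replicate block, other eBayes options or the dimmest genes left out, differences stayed as they were by construction. No sign could turn there, so the 143 include values fixed in advance. With the brightest probe set CXCL1 turned to 0.077, CXCL3 to 0.16, CCL20 to -0.16 and BIRC3 to -0.087. CCL20 also turned to -0.16 without the dimmest 30% of probe sets, where only its brightest remained. With the median of probe sets CXCL8 turned to -0.33 and CXCL2 to -0.013. CXCL2, near 0, also turned to -0.032 with array weights, to -0.091 without control replicate 3 and to -0.055 without inhibitor replicate 3, in a range of -0.091 to 0.061 over the arrays left out. The cause was not tested. Leaving out the dimmest 30% and 50% of genes kept 8 and 4 members. CXCL8 and CCL20 have no value in either setting, and CXCL2, CXCL3, LIF and BIRC3 have none at 50%. Quantile normalization and median centring turned no sign. The setting for LIF was added after seeing the data.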
